A study of Homo sapiens with 4 samples.

Results

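Cytosolic ribosomal protein genes encode the proteins that, with ribosomal RNA, form the large and small subunits of the ribosome that translates nuclear mRNAs. In the deposited table of read counts and FPKM (fragments per kilobase of gene, scaled to library size), they were taken as genes named RPL or RPS plus a number, with RPLP0, RPLP1, RPLP2 and RPSA, and without pseudogenes. This rule found 83 genes of 24940 listed. Of these, 43 encode large subunit proteins, 3 the P stalk, 31 small subunit proteins, and 6 are paralogues of a core protein. The 77 genes of the first 3 kinds are called core genes here. Of the 83 genes, 82 had a level of at least 1 CPM (counts scaled to a common library size) in at least 1 library. The exception was RPL3L, a paralogue of RPL3 known from muscle, with 2, 2, 0 and 0 counts in the double knockdown, sh-c-Myc, sh-Bcl2 and shControl libraries.

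The study asked how knockdown of c-Myc and Bcl-2 together changes MOLM-13 cells compared with knockdown of either alone. MOLM-13 is a human acute myeloid leukaemia line with a KMT2A fusion. Lentivirus delivered doxycycline-induced hairpins against both genes (sh-c-Myc_sh-Bcl2, here the double knockdown), against c-Myc (sh-c-Myc), against Bcl-2 (sh-Bcl2) or a control hairpin (shControl), and cells were selected in 0.5 µg/ml puromycin or 600 µg/ml G418. All 4 groups received doxycycline, given as 72 h for the Western blot. Each group is 1 library, so no difference between 2 groups has a replicate check, and the label "blood" is the line's origin.

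Ribosomal protein mRNAs are among the most abundant mRNAs of growing cells. Many begin with a 5′ terminal oligopyrimidine tract (TOP), a C followed by more pyrimidines, through which mTOR and LARP1 control their translation. The transcription factor c-Myc is known to drive ribosome production, through RNA polymerase I, assembly factors and ribosomal protein genes. Free RPL5 and RPL11 bind MDM2 and stabilise p53, and mutations in several ribosomal protein genes cause Diamond-Blackfan anaemia, a failure of red cell production.

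The libraries held 15494138, 14421558, 15691129 and 14825763 counts in the double knockdown, sh-c-Myc, sh-Bcl2 and shControl. MYC had 302 and 278 CPM in the double knockdown and sh-c-Myc, against 364 CPM in sh-Bcl2 and 434 CPM in shControl, and its ratio of sh-c-Myc to shControl was -0.64 on the log2 scale (95% interval -0.70 to -0.58). BCL2 had 44.5 and 38.7 CPM in the double knockdown and sh-Bcl2, against 112 CPM in sh-c-Myc and 120 CPM in shControl. Genes that mark myeloid leukaemia cells were present in every library (8 of 8), and those of T cells summed to at most 0.770 CPM. Monocyte and macrophage markers (10 of 11 listed in the table, 7 with at least 1 CPM in a library) differed in sum. They had 747, 651, 271 and 167 CPM in the double knockdown, sh-c-Myc, sh-Bcl2 and shControl. In that order CSF1R had 152, 179, 35.7 and 19.0 CPM. FCGR1A had 123, 114, 104 and 92.3 CPM, and CD14 0.960, 1.22, 0.793 and 0.781 CPM. Granule genes (5 of 5 in the table) summed to 4525, 4531, 1512 and 2284 CPM. Long noncoding RNAs took 1.01%, 1.29%, 0.867% and 0.874% of counts. The part of these differences in the results below was not tested.

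The start sites of the genes the results turn on are shown first, because the start carries the TOP tract. RefSeq promoter windows (GRCh38.p14, 250 bases before the start to 50 from it) matched 66 of the 83 genes by symbol. Each line gives 60 bases before the start and 20 from it, 5′ to 3′ on the gene's strand, and capitals mark the pyrimidine tract where the start is a C followed by at least 4 bases that are C or T. The first 5 genes were among the lowest in sh-c-Myc relative to shControl, RPL22L1 and RPL22 are paralogue and core gene, and RPS27 and RPS15 had the highest ratios in that comparison.
RPL36, chr19:5690235-5690314, plus strand: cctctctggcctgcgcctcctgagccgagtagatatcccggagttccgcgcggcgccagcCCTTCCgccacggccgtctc
RPL35, chr9:124861938-124862017, minus strand: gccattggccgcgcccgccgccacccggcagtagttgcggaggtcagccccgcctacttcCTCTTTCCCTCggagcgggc
RPS25, chr11:119018324-119018403, minus strand: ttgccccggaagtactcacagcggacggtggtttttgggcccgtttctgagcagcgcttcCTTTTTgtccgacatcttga
RPSA, chr3:39406660-39406739, plus strand: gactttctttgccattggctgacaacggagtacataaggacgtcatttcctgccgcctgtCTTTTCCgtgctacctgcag
RPS12, chr6:132814509-132814588, plus strand: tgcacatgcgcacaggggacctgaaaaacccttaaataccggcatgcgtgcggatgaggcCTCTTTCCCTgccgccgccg
RPL22L1, chr3:170870176-170870255, minus strand: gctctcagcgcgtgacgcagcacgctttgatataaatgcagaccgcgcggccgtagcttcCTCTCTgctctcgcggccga
RPL22, chr1:6199576-6199655, minus strand: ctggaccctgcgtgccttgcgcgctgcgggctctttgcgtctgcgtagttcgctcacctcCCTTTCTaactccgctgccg
RPS27, chr1:153990702-153990781, plus strand: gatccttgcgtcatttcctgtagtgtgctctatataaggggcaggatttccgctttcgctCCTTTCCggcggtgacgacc
RPS15, chr19:1438336-1438415, plus strand: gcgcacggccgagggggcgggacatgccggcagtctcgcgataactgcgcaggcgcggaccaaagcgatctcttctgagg
Such a tract stood at a RefSeq start of 47 of the 66 genes (71.2%), against 682 of 9470 other genes that had a window and reached 1 CPM (7.20%). RPS15 and RPS27L were among the 19 without one at an annotated start, which need not be the start used in these cells. A set of 4 short motifs was searched on both strands of the whole window. The c-Myc E-box CACGTG was in 5 of 66 windows (7.58%), against 12.7% of other genes. The ETS motif CCGGAAG was in 24 (36.4%, against 23.1%), the YY1 motif AAGATGG in 9 (13.6%, against 9.78%) and the TATA box TATAAA in 6 (9.09%, against 8.40%).

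The core genes were abundant in every library. Their median FPKM was 201 in the double knockdown, 180 in sh-c-Myc, 240 in sh-Bcl2 and 285 in shControl. Of the 100 genes with the highest FPKM in each library, 35, 34, 39 and 44 were ribosomal protein genes. RPS12, a small subunit protein known from cell competition in flies, was the highest in shControl, with 1431, 1198, 1675 and 2670 FPKM in the double knockdown, sh-c-Myc, sh-Bcl2 and shControl. It was followed in shControl by RPS18 (1374 FPKM), RPS2 (1277 FPKM), RPL13A (1226 FPKM) and RPLP0 (1047 FPKM), the base of the P stalk that binds elongation factors. All 5 had their lowest FPKM in sh-c-Myc.

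**Figure D1:**
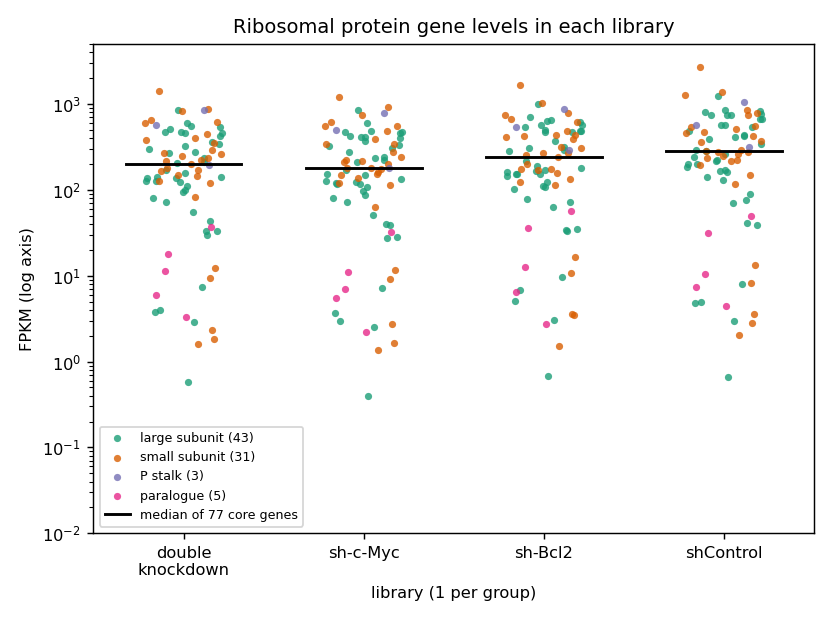
FPKM (log axis) of the 82 ribosomal protein genes with at least 1 CPM in each library. Each point is 1 gene, coloured by role, and bars give the median of the 77 core genes, 201 in the double knockdown, 180 in sh-c-Myc, 240 in sh-Bcl2 and 285 in shControl. A second cloud of 10 core genes lies below 15 FPKM in shControl.

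A group of 10 core genes stood apart, below 15 FPKM in shControl, with a highest value of 13.4 FPKM, while the other 67 core genes began at 39.5 FPKM. This split was chosen after the values were seen. Among the lowest were RPL17 (0.576, 0.394, 0.672 and 0.656 FPKM in the double knockdown, sh-c-Myc, sh-Bcl2 and shControl), RPS10 (2.03 FPKM in shControl), RPS15A (2.80 FPKM) and RPL36A (2.99 FPKM). The group also held RPL23A, RPL26, RPL30, RPS23 and RPS29. Each of the 10 shares exonic bases with another annotated gene in GENCODE 29, up to 39.4% for RPS10, where the readthrough gene RPS10-NUDT3 lies, and 35.3% in all for RPL17, where RPL17-C18orf32 lies. RPL23A has 91 pseudogenes named after it in that annotation. Of all 83 genes, 51 share exonic bases with another gene, 20 of them over 10%, and the strand setting of the counting, like its treatment of reads with several matches, was not given in the sources used here. Levels of such genes are therefore uncertain, and the part of overlapping genes and pseudogenes in them was not tested.

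Ribosomal protein mRNAs took a smaller share of the library in each knockdown. The 83 genes held 6.14%, 5.75% and 7.13% of counts in the double knockdown, sh-c-Myc and sh-Bcl2, against 8.97% in shControl. The Wilson 95% interval of the shControl share was 8.96% to 8.98%. After scaling, the summed level was 60829 CPM in the double knockdown, 53212 CPM in sh-c-Myc and 73882 CPM in sh-Bcl2, against 94394 CPM in shControl. On the log2 scale the sum was therefore -0.63 in the double knockdown, -0.83 in sh-c-Myc and -0.35 in sh-Bcl2 relative to shControl. The large subunit with the P stalk (-0.83 in sh-c-Myc) and the small subunit (-0.82) were alike in this sum. These are shares of the counted RNA, and in these bulk libraries fewer cells of a type and less RNA per cell cannot be told apart. Scaling used TMM factors, intervals below cover counting error only, and PCR copies are not independent molecules.

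The c-Myc hairpin alone gave the largest differences of the 3 comparisons with shControl. In sh-c-Myc against shControl, 25 of the 82 genes were called lower and 0 higher, where a call needs a ratio of at least 2-fold and a 95% interval that excludes 1. Across all 13646 genes with 1 CPM, 9.86% were called lower and 12.5% higher. The median log2 ratio of the ribosomal protein genes was -0.81, against -0.02 over all genes. Among genes that reached 10 CPM the all-gene median was -0.13, and the ribosomal protein median relative to it was -0.68 in place of -0.79. Abundant genes in general had lower ratios here. Spearman's rho of this ratio with shControl FPKM was -0.44 over all genes and -0.17 over the 82, with shControl on both sides. The part of abundance in the difference was not tested. The interval lay below 0 for 77 genes, above 0 for 1 (RPS27) and held 0 for 4. Over all 13646 genes it lay below 0 for 5093 (37.3%) and above 0 for 4500. The count of 25 calls rests on many ratios close to 2-fold. It was 12 with total counts in place of TMM factors and 13 with upper quartile factors, where 6.64% and 6.70% of all genes were called lower, and the median was -0.63 under both.

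RPL36, a large subunit protein (chromosome 19, 5674947 to 5691876, plus strand), had the lowest ratio. It had 180, 168 and 242 CPM in the double knockdown, sh-c-Myc and sh-Bcl2, against 574 CPM in shControl. All 3 knockdown libraries were low, and sh-c-Myc was 3.41-fold lower than shControl (log2 ratio -1.77, 95% interval -1.83 to -1.71). Other genes, HSD11B1L among them, overlap 19.5% of its exonic bases.

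RPL35, which lies at the exit of the tunnel through which the new protein leaves, had 217, 188 and 287 CPM in the double knockdown, sh-c-Myc and sh-Bcl2, against 558 CPM in shControl. Its log2 ratio was -1.57 in sh-c-Myc. RPL11 (chromosome 1, 23691742 to 23696835, plus strand), which binds MDM2, had 339, 299 and 426 CPM, against 822 CPM in shControl, and was 2.75-fold lower in sh-c-Myc (log2 ratio -1.46, interval -1.51 to -1.41). In all 3 genes sh-c-Myc was the lowest library and shControl stood well above the rest. RPL5, the partner of RPL11 on 5S rRNA, had 1021, 805 and 1438 CPM, against 1598 CPM in shControl. At 1.98-fold lower in sh-c-Myc (log2 ratio -0.99, interval -1.02 to -0.96) it came just short of a call, and its sh-Bcl2 level lay much nearer to shControl than that of RPL11 did.

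Of the other large subunit genes called lower in sh-c-Myc, RPL8 and RPL14 had log2 ratios of -1.39 each. RPL14 (chromosome 3, 40457292 to 40468587, plus strand) had 369, 315 and 646 CPM in the double knockdown, sh-c-Myc and sh-Bcl2, against 822 CPM in shControl, so both libraries with the c-Myc hairpin were low. RPL12 (-1.19), RPL27 (-1.16), RPL35A (-1.16), RPL27A (-1.15), RPL3 (-1.12), RPL37 (-1.10), RPL10A (-1.04) and RPL9, at the edge of a call, were also among the 14 large subunit genes called. RPL3 lies next to the peptidyl transferase centre, and RPL37 is a zinc-binding protein. Over the 43 large subunit genes the median was -0.91, and the highest ratio was that of RPL15 (-0.24), a member of the same subunit with 1462, 1413, 1426 and 1674 CPM. In the P stalk, RPLP2 was called (-1.01), while RPLP0 (-0.60) and RPLP1 (-0.39) were not.

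On the small subunit, 8 of 31 genes were called lower and the median was -0.74. RPS25, a protein known for initiation on some internal ribosome entry sites, had 240, 205 and 265 CPM in the double knockdown, sh-c-Myc and sh-Bcl2, against 558 CPM in shControl (log2 ratio -1.45 in sh-c-Myc, interval -1.51 to -1.39). Genes on the other strand, TRAPPC4 among them, overlap 20.8% of its exonic bases. RPSA, also known as the laminin receptor precursor, had 1038, 763 and 1734 CPM, against 1972 CPM in shControl (-1.37), and was near its shControl level in sh-Bcl2. RPS2 (-1.41) and RPS3 (-1.18), which line the entry of the mRNA channel, RPS12 (-1.34), RPS18 (-1.09) and RPS26 (-1.08) were also called. Most small subunit genes were not called, and a few stood near 0.

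RPS27, a zinc finger protein, had 906, 875 and 832 CPM in the double knockdown, sh-c-Myc and sh-Bcl2, against 809 CPM in shControl. It was the 1 member whose interval lay above 0 in sh-c-Myc (log2 ratio 0.11, interval 0.08 to 0.15), and its start carries a TOP tract. RPS15, mutated in some chronic lymphocytic leukaemias, had 1391, 1216 and 1481 CPM, against 1228 CPM in shControl, a log2 ratio of -0.01 in sh-c-Myc that was 0.17 with total counts. RPS23 had 39.2, 35.8 and 47.0 CPM, against 36.2 CPM in shControl (-0.02), and belongs to the 10 low genes. RPS15A, also of these 10, followed at -0.21.

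**Figure D2:**
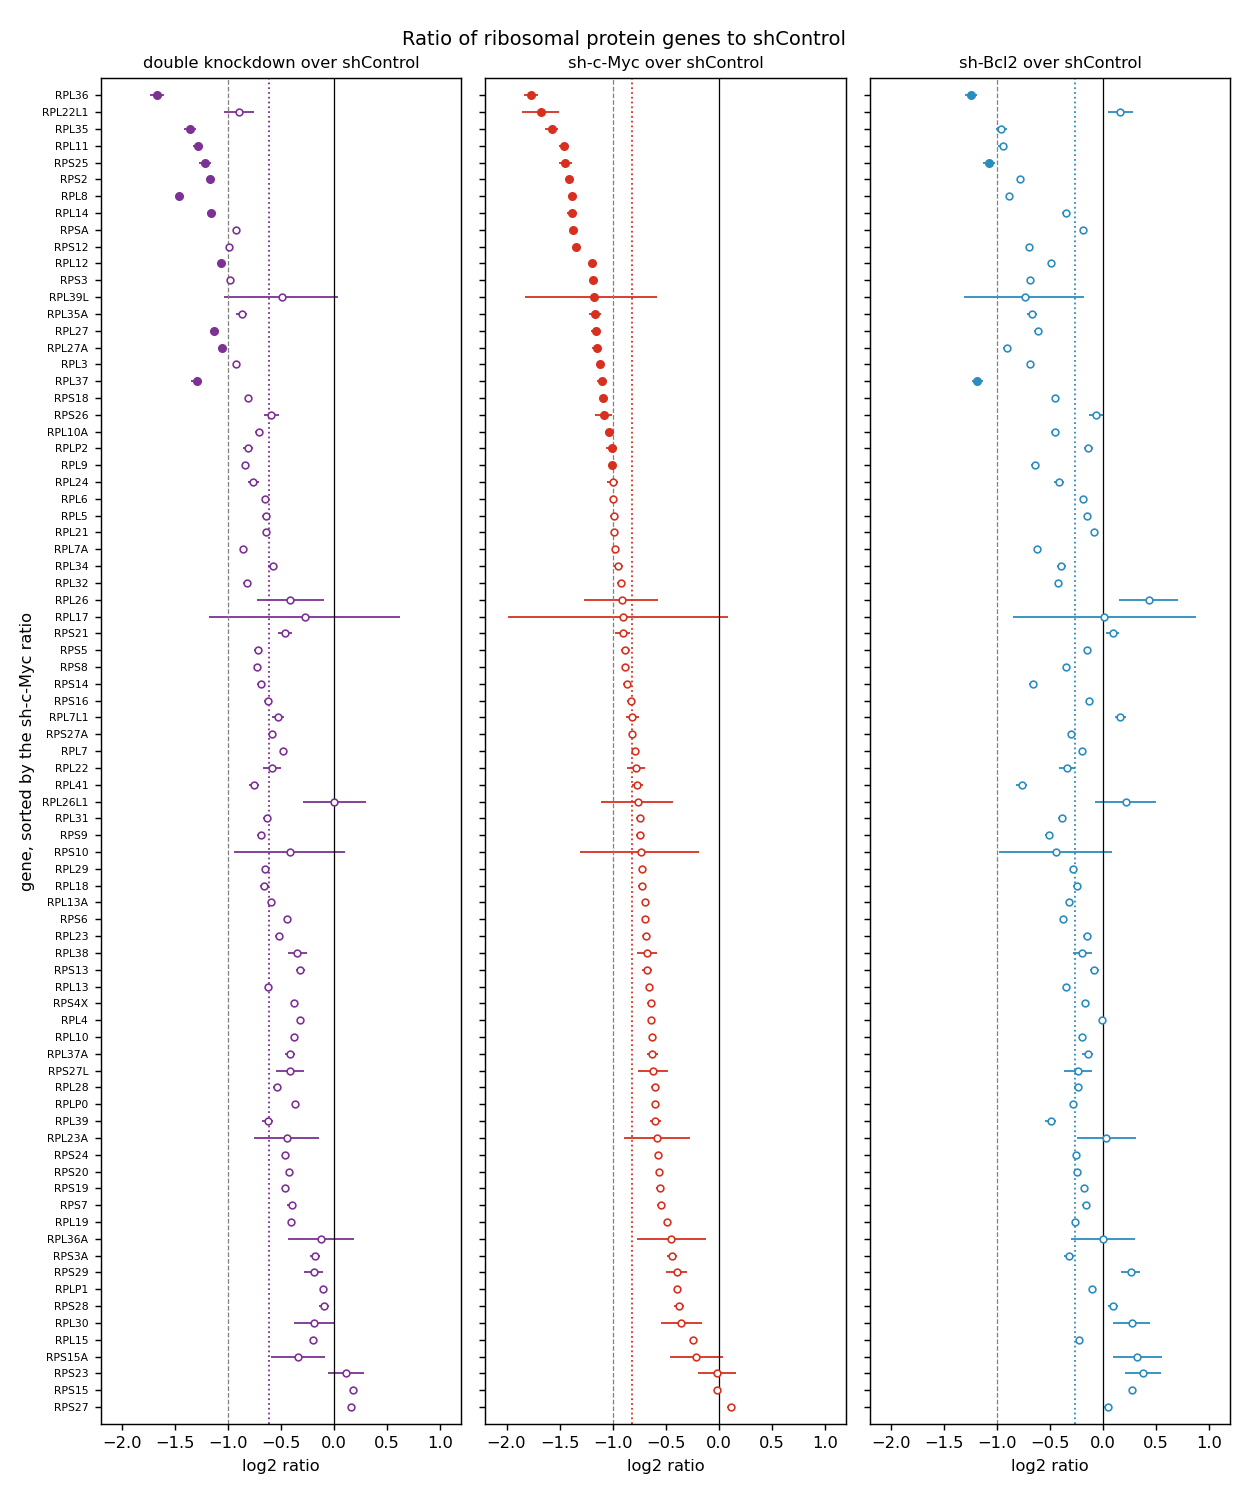
Log2 ratio of 79 of the 82 ribosomal protein genes in the double knockdown, sh-c-Myc and sh-Bcl2 over shControl, sorted by the sh-c-Myc ratio. Points are ratios of TMM-scaled counts, bars 95% counting intervals, filled points calls at 2-fold (dashed line), and dotted lines the medians of the 82 genes, -0.61, -0.81 and -0.26. RPL36 is the lowest in all 3 panels, and RPS27 and RPS15 stay near 0.

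A further 4 genes known from disease or signalling, chosen after their values were seen, were not called. RPS19, the most often mutated gene of Diamond-Blackfan anaemia, had 826, 773 and 1007 CPM in the double knockdown, sh-c-Myc and sh-Bcl2, against 1138 CPM in shControl (log2 ratio -0.56 in sh-c-Myc). RPS14, lost in the 5q- syndrome, had 646, 572 and 659 CPM, against 1040 CPM in shControl, with ratios of -0.86 in sh-c-Myc and -0.66 in sh-Bcl2, so its 3 knockdown libraries lay close together. RPS6, the ribosomal substrate of S6 kinase, had 1666, 1402 and 1743 CPM, against 2269 CPM in shControl. RPL10, mutated in some T cell leukaemias, had 2195, 1844 and 2491 CPM, against 2854 CPM in shControl (-0.63 in sh-c-Myc), and other genes, DNASE1L1 among them, overlap 55.5% of its exonic bases. In each of these 4 genes sh-c-Myc was the lowest library and shControl the highest.

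The paralogues were set beside their core partners. RPL22L1 (chromosome 3, 170864875 to 170870483, minus strand), whose mouse form is repressed by Rpl22, had 41.2 and 23.9 CPM in the double knockdown and sh-c-Myc, against 85.7 CPM in sh-Bcl2 and 76.5 CPM in shControl. It was 3.20-fold lower in sh-c-Myc than in shControl (log2 ratio -1.68, interval -1.85 to -1.51), and only the libraries with the c-Myc hairpin were low. Its partner RPL22 had 136, 119 and 161 CPM, against 205 CPM in shControl (-0.78 in sh-c-Myc), so it too was lowest in sh-c-Myc. RPL39L, known from testis, had 3.52, 2.18 and 2.97 CPM, against 4.97 CPM in shControl (-1.18, interval -1.82 to -0.58), and its partner RPL39 had a ratio of -0.60. The remaining paralogues were not called. RPL7L1 was at -0.81 beside -0.79 for RPL7, RPL26L1 at -0.77 beside -0.91 for RPL26, and RPS27L, a known p53 target, at -0.62 beside 0.11 for RPS27.

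The 2 by 2 layout of the 4 libraries allows 1 test of each hairpin across both backgrounds, with 1 residual degree of freedom that also holds any non-additive part. In edgeR's quasi-likelihood test with Benjamini-Hochberg adjustment over 12855 genes, 27 of the 82 ribosomal protein genes fell and 0 rose with the c-Myc hairpin at an adjusted p below 0.05. Over all genes tested, 14.2% fell and 9.24% rose. RPL22L1 fell by 1.36 on the log2 scale (adjusted p = 0.00092, edgeR), RPL14 by 1.10 (adjusted p = 0.0032), RPSA by 1.06 (adjusted p = 0.0091) and RPL36 by 1.10 (adjusted p = 0.011). RPL37 (adjusted p = 0.072, edgeR) and RPL3 (adjusted p = 0.10), both called by ratio in sh-c-Myc, did not pass. MYC itself, with a ratio of -0.64 in sh-c-Myc that is not a call, had a fitted change of -0.46 and did not pass. The median fitted change over the 82 genes was -0.55, against -0.02 over all genes.

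The Bcl-2 hairpin alone was followed by smaller differences. In sh-Bcl2 against shControl, 3 of the 82 genes were called lower and 0 higher, beside 2.16% lower and 2.45% higher over all genes, so the share called (RPL36, RPL37 and RPS25) is near the background. The median log2 ratio was -0.26, against 0.00 over all genes. Intervals lay below 0 for 64 genes and above 0 for 11. Over all 13646 genes they lay below 0 for 3154 (23.1%) and above 0 for 2996. RPL36 had a log2 ratio of -1.25 (interval -1.30 to -1.19). RPL37 (chromosome 5, 40825262 to 40835335, minus strand) had 266, 306 and 288 CPM in the double knockdown, sh-c-Myc and sh-Bcl2, against 655 CPM in shControl, and its sh-Bcl2 ratio was -1.19 (interval -1.24 to -1.13). RPS25 had -1.08 (interval -1.13 to -1.02). All 3 knockdown libraries were thus low for each of these genes. The next lowest were RPL35 (-0.96) and RPL11 (-0.95). At the other end stood RPL26 (0.43), RPS23 (0.38), RPS15A (0.32), RPS15 (0.27) and RPL30 (0.27), of which all but RPS15 belong to the 10 low core genes. Those 10 had a median of 0.14, against -0.32 for the other 67 core genes. The shControl library both set this split and is the denominator of the ratio.

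In the 2 by 2 fit, 0 ribosomal protein genes fell or rose with the Bcl-2 hairpin (edgeR's quasi-likelihood test, adjusted p below 0.05), where 0.0156% of all genes fell and 0.0156% rose. At an unadjusted p below 0.05, 2 were lower (RPL36 and RPL37) and 1 higher (RPL22L1). Of all 12855 genes tested, 494 were lower (3.84%) and 472 higher at that threshold. The share of ribosomal protein genes that were lower (2.44%) was thus below the background. DESeq2 and limma-voom, with the same additive layout, also gave 0. The fit gives 1 effect across both backgrounds, and opposite ratios cancel in it. Median ratios were -0.26 without and 0.20 with the c-Myc hairpin, and the median fitted change was -0.05. The fit therefore cannot show whether the Bcl-2 hairpin made a difference in either background alone.

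The double knockdown lay between sh-c-Myc and shControl. Against shControl, 12 of the 82 genes were called lower and 0 higher, beside 5.99% lower and 7.1% higher over all genes. The comparison shares the shControl library with that of sh-c-Myc. Among the 12 genes were RPL36 (-1.67), RPL8 (-1.46), RPL35 (-1.36), RPL37 (-1.30), RPL11 (-1.28), RPS25 (-1.21), RPS2 (-1.17), RPL14 (-1.16), RPL27 (-1.13), RPL12 (-1.07) and RPL27A (-1.06). The median was -0.61, against -0.01 over all genes. The highest ratios were those of RPS15 (0.18), RPS27 (0.16) and RPS23 (0.11), then RPL26L1 (13.0 CPM in both libraries) and RPS28 (-0.10).

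For 74 genes the double knockdown's level was above sh-c-Myc and below shControl. The lowest of the 4 libraries was sh-c-Myc for 75 genes, the double knockdown for 5, sh-Bcl2 for 1 and shControl for 1. Shares of all genes for these counts are not given here. The order sh-c-Myc, double knockdown, sh-Bcl2, shControl from low to high held for 59 of the 82 genes (72.0%), and for 1927 of all 13646 genes (14.1%).

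Set against sh-c-Myc, 0 genes were called lower or higher in the double knockdown, beside 4.7% lower and 1.66% higher over all genes. With single libraries this is a rule of size and not a test, and no p can be given. The ratios were small but mostly above 0. The median was 0.20, against 0.03 over all genes. The interval lay above 0 for 68 members and below 0 for 2, RPL37 (-0.20) and RPL8 (-0.07). Over all 13646 genes it lay above 0 for 4305 and below 0 for 3090 (22.6%). With total counts the medians of members and of all genes were 0.10 and -0.07, and 48 member intervals lay above 0 and 11 below. Among genes that reached 10 CPM the medians were 0.20 and 0.10, so the median relative to all genes was 0.099 in place of 0.17. RPL22L1 had the highest ratio (0.78, interval 0.60 to 0.97), followed among members that reached 10 CPM by RPL26L1 (0.76), RPL26 (0.50), RPS26 (0.49) and RPSA (0.44). Below 10 CPM, RPL39L had 0.68 (interval 0.05 to 1.35) and RPL17 had 0.63. Next lowest after RPL37 were RPS15A (-0.13) and RPL8, then RPL39 (-0.03).

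Against sh-Bcl2, 1 gene was called lower in the double knockdown and 0 higher, beside 3.63% lower and 5.21% higher over all genes. The gene was RPL22L1 (-1.06, interval -1.19 to -0.92), which was not called with total counts. The median was -0.27, against -0.01 over all genes, and the interval lay below 0 for 71 genes and above 0 for 3. Over all 13646 genes it lay below 0 for 4190 (30.7%) and above 0 for 3704. RPL26 (-0.84), RPL14 (-0.81) and RPSA (-0.74) were also among the lowest. RPL39L, below 10 CPM in every library, had the highest ratio (0.24). Among members that reached 10 CPM, RPS3A (0.15), RPS27 (0.12) and RPL15 (0.04) were the highest, with RPL41 at 0.01 and RPLP1 at 1827 and 1830 CPM in the double knockdown and sh-Bcl2.

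For most of these genes the Bcl-2 hairpin's ratio had a different sign in the 2 backgrounds. Without the c-Myc hairpin it compares sh-Bcl2 with shControl, and with that hairpin it sets the double knockdown beside sh-c-Myc, so no library is shared. Of the 82 genes, 58 (70.7%) had an interval below 0 without the c-Myc hairpin and above 0 with it. Over all genes this held for 936 of 13646 (6.86%). The opposite change held for 0 ribosomal protein genes, while 2 were below 0 in both, 8 above 0 in both, and 14 had an interval that held 0. With total counts or upper quartile factors, the 58 became 38 under each, and all genes 4.20% and 3.80%. RPL36 had -1.25 without and 0.10 with the c-Myc hairpin (interval 0.02 to 0.18), and with total counts the second interval held 0 (-0.08 to 0.08). RPL11 had -0.95 and 0.18, and RPS25 -1.08 and 0.23.

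**Figure D3:**
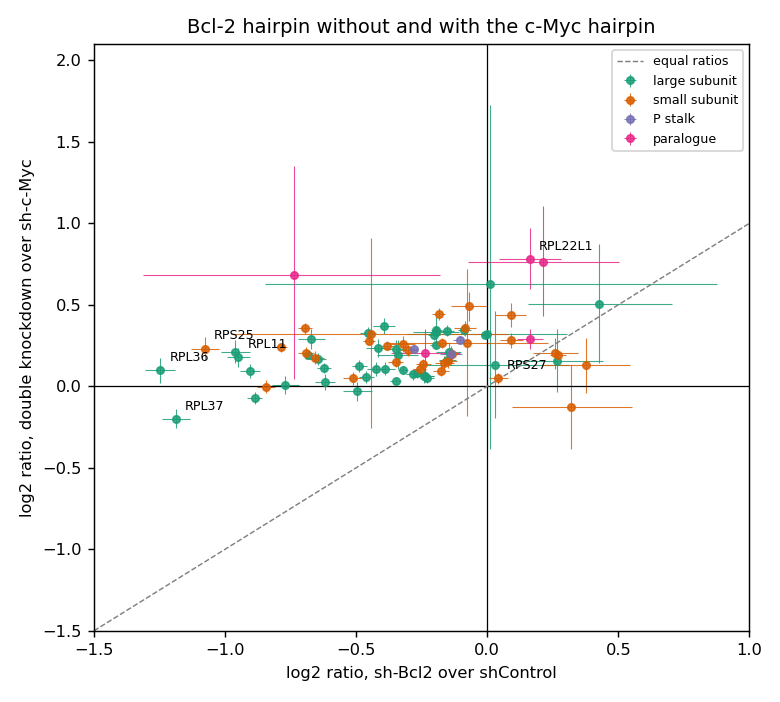
Log2 ratio of the double knockdown over sh-c-Myc (vertical) against that of sh-Bcl2 over shControl (horizontal) for 82 ribosomal protein genes, with 95% counting intervals. Each point is 1 gene, coloured by role, and the dashed line marks equal ratios. Of the 82 genes, 58 lie in the upper left with both intervals clear of 0.

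The departure from additivity, the double knockdown's log2 ratio minus the sum of both single knockdown ratios, had a median of 0.51 over the 82 genes, against 0.05 over all genes. Its interval lay above 0 for 71 (86.6%, against 29.2% of all genes) and below 0 for 3. The departure was 1.35 for RPL36 (interval 1.25 to 1.44), 1.31 for RPS25, 1.13 for RPL11, 1.05 for RPS12 and 0.99 for RPL37. RPL5 had 0.49, RPL22L1 0.62 and RPS27 0.01 (interval -0.04 to 0.06). The same 4 libraries give this value, so a deviation of 1 library, shControl included, moves it for every gene at once, and whether it would recur in other cultures was not tested.

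Ratios varied among the members with few shared features. Genes with a TOP tract at their RefSeq start had a median of -0.78 in sh-c-Myc against shControl (47 genes), and those without one -0.77 (19 genes). In sh-Bcl2 against shControl these medians were -0.32 and -0.17. The split depends on the exact annotated start, and start sites in these cells were not measured. A start annotated a few bases off counts as without a tract. These medians therefore cannot show whether a TOP tract makes a difference to the ratio. Genes with an E-box had -0.56 (5 genes) and those without -0.81 (61 genes) in sh-c-Myc. The 28 core genes that host a small nucleolar RNA gene in their span had -0.95, and the other 49 had -0.77. Across the 82 genes, Spearman's rho of the sh-c-Myc ratio was -0.15 with GC content and 0.26 with gene length. That of the sh-Bcl2 ratio with shControl FPKM was -0.34, against -0.13 over all genes, and the shControl library enters both sides of it. These are descriptions over genes that share 4 libraries. Of the 19 genes listed for Diamond-Blackfan anaemia, 6 were called lower in sh-c-Myc (RPL11, RPL35, RPL35A, RPL27 and RPS26 among them), 0 in sh-Bcl2 and 4 in the double knockdown, beside 9.86%, 2.16% and 5.99% of all genes. In sh-c-Myc the share was 31.6%, near the 30.5% of all ribosomal protein genes. Their medians were -0.46 in the double knockdown, -0.74 in sh-c-Myc and -0.18 in sh-Bcl2.

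Other genes of the pathway were taken from lists chosen with earlier results of these data known. Their counts stand beside 9.86% of all genes called lower in sh-c-Myc, 5.99% in the double knockdown and 2.16% in sh-Bcl2. Of the core proteins outside the naming rule, FAU, the source of RPS30, had a log2 ratio of -0.62 in sh-c-Myc, and RACK1, a scaffold on the small subunit, one of -0.53, neither of them a call. The nucleolar list holds assembly factors and also RNA polymerase I subunits, POLR1A among them. Of its 33 genes, 28 (84.8%) were called lower in sh-c-Myc, with a median of -1.43. In the double knockdown 12 (36.4%) were called lower (-0.92), but 0 in sh-Bcl2 (-0.06). MYBBP1A (72.2 and 48.4 CPM in the double knockdown and sh-c-Myc, against 207 CPM in sh-Bcl2 and 239 CPM in shControl) and LYAR (24.0 and 13.5 CPM, against 58.1 and 63.2 CPM) were the lowest. By median, this list was thus lower than the ribosomal proteins in sh-c-Myc and not in sh-Bcl2, a difference between lists that was not tested.

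A list of 13 chaperones and importers of ribosomal proteins also holds the assembly factor LTV1 and the export adaptor NMD3. Of these 13 genes, 6 (46.2%) were called lower in sh-c-Myc (median -0.85) and 0 in sh-Bcl2 (median 0.02). IPO5, an importin, was at -1.42 and BCCIP, a chaperone of RPL23, at -1.37, while HEATR3, which imports RPL5, was at -0.35 and IPO9 at -0.41. Of 20 translation genes with a known TOP tract, 2 were called lower in sh-c-Myc (EEF1B2 at -1.44 and HNRNPA1 at -1.16), a share of 10.0% that is near the 9.86% of all genes. Their median was -0.53 in sh-c-Myc, -0.38 in the double knockdown and -0.21 in sh-Bcl2. PFDN5 and NACA were the highest, at 0.09 and 0.08. Mitochondrial ribosomal proteins, of which 21 of 77 (27.3%) were called lower in sh-c-Myc, had medians of -0.40 in the double knockdown, -0.64 in sh-c-Myc and -0.09 in sh-Bcl2.

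Among 14 regulators of mTOR and TOP mRNAs, the median was -0.32 in sh-c-Myc. EIF4EBP1, the repressor of cap-dependent translation, had 36.5, 39.4 and 112 CPM in the double knockdown, sh-c-Myc and sh-Bcl2, against 208 CPM in shControl, and was called lower in both the double knockdown (-2.51) and sh-c-Myc (-2.40). EIF4E was at -0.86 and LARP1 at -0.66 in sh-c-Myc, while TSC1 (0.50) and EIF4EBP2 (0.37) had the highest ratios.

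**Figure D4:**
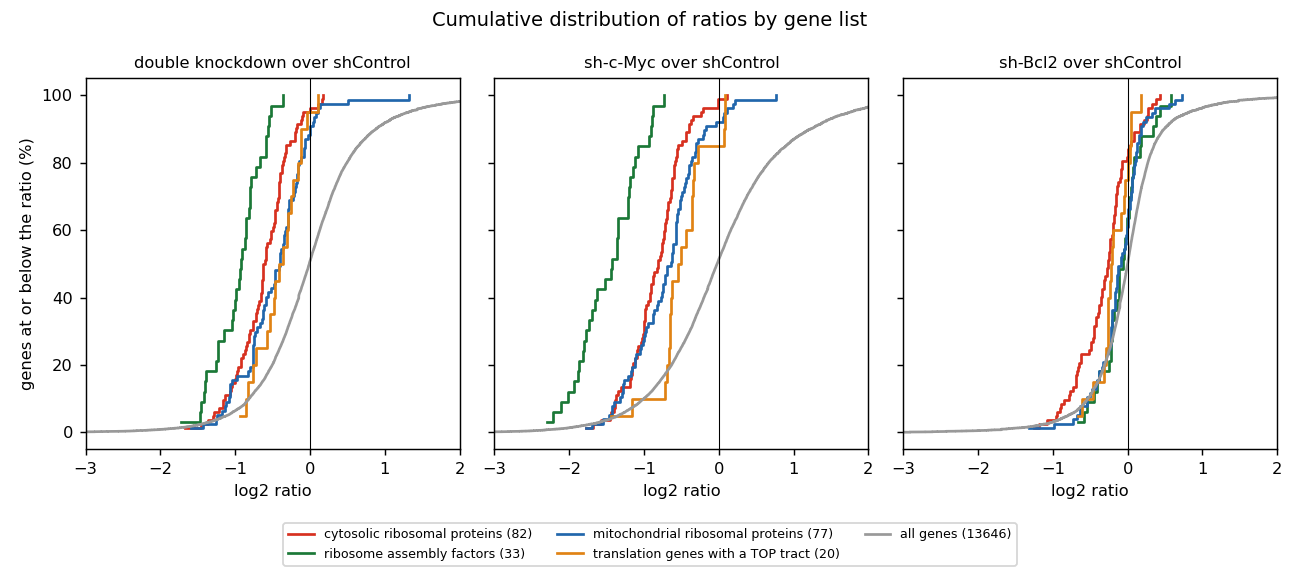
Share of genes (%) at or below each log2 ratio for 5 gene lists in the double knockdown, sh-c-Myc and sh-Bcl2 over shControl. Cytosolic ribosomal proteins have medians of -0.61, -0.81 and -0.26, while all genes are centred near 0. The assembly factor list, which includes RNA polymerase I subunits, has medians of -0.92, -1.43 and -0.06.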

How the data were processed

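Total RNA of 4 libraries was prepared with a NEBNext Ultra kit, per the labels' protocols, and counts and FPKM were deposited in 1 table. The deposited counts came from HISAT2 and HTSeq 0.13.5 on GRCh38, per the submitters' processing notes. The authors' FPKM values imply gene lengths that equal GENCODE 29 merged exons within 1 base for 24884 of 24940 genes, so gene names and coordinates follow that release. The HISAT2 version, like the strand setting and the treatment of reads with several matches, was not given in the sources used here. All 4 groups follow the labels, and depth was 14421558 to 15691129 counts per library, at which 3 counts, the upper limit that a count of 0 allows, correspond to 0.192 to 0.213 CPM.

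Counts were scaled with edgeR 4.0.16 TMM factors (0.950 to 1.08). Log2 ratios used a prior count of 0.5 and exact conditional binomial 95% intervals, and the departure from additivity a delta-method interval. A call needed 2-fold, an interval without 1, and 1 CPM in at least 1 library. The 2 by 2 model was fitted with edgeR's quasi-likelihood test over 12855 genes with 1 CPM in at least 2 libraries (biological coefficient of variation 0.149). DESeq2 1.42.0 and limma 3.58.1 were alternatives, as were other scalings, filters, FPKM + 1 and a GC and length correction. The fit and the intervals were tested on simulated data. Those data held no deviation shared by the genes of 1 library and no non-additive part. They therefore cannot show how the results would hold in other cultures.

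Named genes are MYC and BCL2, every member called in any comparison, the 5 lowest and 5 highest ratios of each comparison at 10 CPM or more, the 5 highest and 5 lowest FPKM in shControl, the paralogues with their partners, RPL5, RPL11 and up to 2 per direction from each other list. Genes named beside these were chosen after their values were seen. The members, lists and rules were chosen with earlier results of these data known. RPL10L was not analysed here, and some genes that the rule names are not reported here.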

Additional observations from a re-analysis of the deposited data

Results flagged for a closer look

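For 58 of 82 ribosomal protein genes, the ratio for the Bcl-2 hairpin had an interval below 0 without the c-Myc hairpin and above 0 with it. With total counts or upper quartile factors this held for 38. The median log2 ratio over 82 genes was 0.20 in the double knockdown over sh-c-Myc and -0.26 for sh-Bcl2 against shControl. RPL36 had 0.10 and -1.25, and RPS25 had 0.23 and -1.08, in the same order of comparisons. With total counts, the interval of RPL36 in the double knockdown over sh-c-Myc held 0 (-0.08 to 0.08). Each group is 1 library and a model with an interaction term has no residual degrees of freedom, so the difference was not tested.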

How the results depend on the processing

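No called ratio of a named ribosomal protein gene, and no median over these genes, changed direction under the alternatives run for it. All-gene medians did. With total counts, that of sh-c-Myc against shControl was 0.17 in place of -0.02, that of the double knockdown over sh-c-Myc -0.07 in place of 0.03 and that of the departure -0.07 in place of 0.05. Relative to all genes, the ribosomal protein median of sh-c-Myc against shControl was -0.80 in place of -0.79. Total counts gave 12 genes lower for sh-c-Myc over shControl and 0 for the double knockdown over sh-Bcl2, medians of -0.63 (sh-c-Myc) and -0.52 (double knockdown) against shControl, 0.10 and -0.21 for the double knockdown over sh-c-Myc and over sh-Bcl2, and a departure of 0.39. Upper quartile factors gave 13 genes lower in sh-c-Myc, medians of -0.63, -0.52, 0.11 and -0.23 in the same order, -0.21 for sh-Bcl2 against shControl, and a departure of 0.37. Among all genes called in sh-c-Myc against shControl, 71.0% were higher with total counts and 70.7% with upper quartile factors, against 55.9% with TMM, while 0 ribosomal protein genes were higher under any scaling. FPKM + 1 gave 11 and 0 genes, medians of -0.59, -0.52, 0.095 and -0.21, and a departure of 0.38. Removing a GC and length trend gave medians of -0.73 and -0.56 against shControl, 0 genes and -0.24 for the double knockdown over sh-Bcl2, and a departure of 0.44. At 1.5-fold, 64, 19 and 44 genes were lower in sh-c-Myc, sh-Bcl2 and the double knockdown against shControl and 8 for the double knockdown over sh-Bcl2. At 2-fold, core genes alone gave 0 in the last comparison. In the 2 by 2 fit, the count for the c-Myc hairpin was 46 with no filter. That for the Bcl-2 hairpin was 2 with total counts, 1 with upper quartile factors and 1 with no filter. Shares of all genes for the FPKM + 1, 1.5-fold and fit counts are not given here. A lower fold threshold also calls more of all genes, so these counts show only how they move with the setting. The count of 58 genes with opposite signs and the counts of intervals above or below 0 were recomputed under other scalings, a choice made after the data were seen, and the first was 58 with DESeq2 size factors. Of 462 alternative values of single named genes, 60 lost their call, and the causes were not tested. Many of the 462 belong to ratios with no call under TMM factors at 2-fold, which had none to lose. The share of calls lost is therefore higher than 60 of 462. Ribosomal protein genes called with TMM numbered 25, 3, 12, 0 and 1 over the 5 comparisons, in the order of the results. Counting error is small for abundant genes and wide for RPL17, RPS10 and RPL39L.

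No paired analysis was possible because each group holds 1 library and the replicate numbers only name it. Leaving out a library would leave a group empty or no residual degrees of freedom.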
